A study of Mus musculus with 8 samples.

Results

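The M2-only Ets1 promoter peaks are 1199 regions near gene starts that carried Ets1 signal in M2-polarized mouse macrophages and no called signal in M1-polarized ones. A peak of the M2 list was taken when no M1 peak overlapped it by 1 bp and its summit lay within 1000 bp of a gene start in the expression table. The 1199 peaks were drawn from 22640 M2 peaks, of which 8339 lay at promoters, and they sat at the starts of 1323 of the 23346 genes in the table. Ets1 ChIP-seq covered wild type C57 macrophages, with 1 library for M1 and 1 for M2, so no comparison between the states has a replicate check. RNA-seq covered 3 control libraries (Ets1 f/f) and 3 knockout libraries (Ets1 f/f * Lyz2-cre), all with floxed Ets1 alleles and without a polarization step in the labels. Lyz2-cre acts in myeloid cells, so other cell types in a culture would keep the gene.

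All cells were bone marrow-derived macrophages of male mice aged 8 weeks, grown in 10% serum with M-CSF at 10 ng/ml and used after 7 days. The cells for ChIP-seq were then polarized with agents that the labels do not name, and fixed in 1% formaldehyde for 10 min. The RNA libraries held 16897873 to 20259175 recovered reads on genes and detected 18980 to 20217 genes. Control libraries differed more from each other than knockout libraries did: chi-square per degree of freedom over gene counts was 11.7 to 37.8 between controls, highest between controls 1 and 3, and 3.11 to 5.44 between knockouts. Ets1 itself fell from 3282 ± 389 to 742 ± 90.6 normalized counts (SD, n = 3 libraries each; log2 fold change -2.15 ± 0.11 SE, adjusted p = 3.93e-07 by limma), so a part of its signal remained. No Ets1 peak of either list lay within 1000 bp of its own start. The 8 macrophage markers checked, Adgre1, Csf1r, Cd68, Itgam, Lyz2, Mertk, Fcgr1 and Cd14, lay at or above the 97.0th percentile of control levels. Adgre1 and Lyz2 were higher in knockouts (log2 fold change 0.58 and 0.56, adjusted p = 0.00281 and 0.00414 by limma). Csf1r was lower (-0.34, adjusted p = 0.0149), and the others had an adjusted p of 0.229 or more. In bulk RNA, fewer cells of a type and less RNA per cell cannot be told apart.

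Ets1 is a founding member of the ETS family of transcription factors, which bind DNA around the core letters GGAA. It is best known from lymphocytes, and ETS letters are common at promoters of genes used by every cell. Macrophages exposed to bacterial products and interferon are called M1, or classically activated. Those exposed to interleukin-4 or interleukin-13 are called M2, or alternatively activated, and carry programs of lipid handling and repair.

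The DNA under these peaks was read from RefSeq promoter windows of build GRCm38.p6, which cover 250 bases before to 50 after each gene's start. Of the 1323 genes, 931 had such a window under their symbol. The stretches printed here lie inside member peaks and run 5′ to 3′ on the gene's strand. Capitals mark the ETS letters CCGGAA or CCGGAAGT and the PU.1-type letters GAGGAAGT on either strand. The first set holds promoters with the full letters CCGGAAGT at strong member peaks or at genes that changed in the knockouts.
Actr6 (chr10:89732265-89732415, minus strand): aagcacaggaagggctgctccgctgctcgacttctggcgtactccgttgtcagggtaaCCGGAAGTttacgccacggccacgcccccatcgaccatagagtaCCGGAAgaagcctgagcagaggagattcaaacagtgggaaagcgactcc
Fam32a (chr8:72219644-72219794, plus strand): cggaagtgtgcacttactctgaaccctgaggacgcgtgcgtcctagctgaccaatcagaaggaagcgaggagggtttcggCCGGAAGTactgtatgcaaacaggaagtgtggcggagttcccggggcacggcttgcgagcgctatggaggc
Arpc3 (chr5:122391784-122391927, plus strand): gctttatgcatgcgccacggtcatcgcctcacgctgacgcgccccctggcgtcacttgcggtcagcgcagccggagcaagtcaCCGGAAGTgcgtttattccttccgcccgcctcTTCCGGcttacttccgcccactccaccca
Arhgap1 (chr2:91650017-91650167, plus strand): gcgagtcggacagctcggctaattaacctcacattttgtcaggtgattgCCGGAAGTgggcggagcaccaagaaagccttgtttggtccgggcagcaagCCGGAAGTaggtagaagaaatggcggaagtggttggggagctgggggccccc

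The second set holds the promoters of Rps26, Whrn and Ogt, which are among the 10 strongest member peaks. The Rps26 stretch carries 1 CCGGAA, and the stretches of Whrn and Ogt carry none of the capital letters. The summit of the Rps26 peak lies outside its printed stretch.
Rps26 (chr10:128626606-128626756, minus strand): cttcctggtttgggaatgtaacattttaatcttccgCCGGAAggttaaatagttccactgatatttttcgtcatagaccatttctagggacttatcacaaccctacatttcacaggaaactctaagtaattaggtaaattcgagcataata
Whrn (chr4:63495942-63496092, minus strand): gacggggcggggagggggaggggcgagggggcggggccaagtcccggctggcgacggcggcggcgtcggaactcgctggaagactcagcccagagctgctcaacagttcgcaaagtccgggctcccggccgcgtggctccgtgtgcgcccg
Ogt (chrX:101639901-101640051, plus strand): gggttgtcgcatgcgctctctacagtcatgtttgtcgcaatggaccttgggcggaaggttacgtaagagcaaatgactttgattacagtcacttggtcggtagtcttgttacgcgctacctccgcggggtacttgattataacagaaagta

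The third set holds promoters of genes whose RNA differed between knockouts and controls, with receptors of macrophages among them. The stretches of Ccr1, Trem2, Fcgr2b and Itpr3 hold none of the capital letters, and that of Slco2b1 holds 1 GAGGAAGT. For Trem2 the summit lies outside the window.
Ccr1 (chr9:123968643-123968776, minus strand): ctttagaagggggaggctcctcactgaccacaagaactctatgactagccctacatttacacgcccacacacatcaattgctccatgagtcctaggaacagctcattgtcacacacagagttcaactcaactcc
Trem2 (chr17:48346339-48346450, plus strand): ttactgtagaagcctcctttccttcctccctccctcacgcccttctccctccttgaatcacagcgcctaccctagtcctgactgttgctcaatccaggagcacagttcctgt
Fcgr2b (chr1:170976041-170976191, minus strand): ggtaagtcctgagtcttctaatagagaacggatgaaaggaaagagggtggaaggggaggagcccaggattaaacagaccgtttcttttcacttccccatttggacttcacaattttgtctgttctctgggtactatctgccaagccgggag
Itpr3 (chr17:27057187-27057337, plus strand): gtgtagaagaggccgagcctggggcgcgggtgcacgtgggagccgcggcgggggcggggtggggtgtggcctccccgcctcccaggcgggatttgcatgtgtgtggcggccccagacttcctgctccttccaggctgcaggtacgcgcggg
Slco2b1 (chr7:99711324-99711474, minus strand): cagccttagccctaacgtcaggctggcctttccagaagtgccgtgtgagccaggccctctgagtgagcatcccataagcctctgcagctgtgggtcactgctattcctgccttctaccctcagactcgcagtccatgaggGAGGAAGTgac

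The member peaks were weak. Their fold enrichment at the summit, the authors' value over the peak caller's background, ran from 2.28 to 11.5 with a median of 4.81. Promoter peaks of the M2 list that overlapped an M1 peak, called shared peaks here (n = 7140), had a median of 8.14. The −log10 q, the authors' measure of how far a peak stands from background, had a median of 4.43 in member peaks and 14.9 in shared ones. It was at least 5 in 491 member peaks (40.9%) and in 90.0% of the shared ones. Member peaks were also narrower, with a median width of 351 bp against 652 bp. M1-only promoter peaks (n = 917) had a median fold enrichment of 4.70, and M2-only peaks away from promoters (n = 7064) had 4.69. These are values of peaks from 1 library per state, and no test was made.

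How often an M2 promoter peak lacked an M1 partner depended on its strength. Sorted by fold enrichment into 10 bins, with 833 or 834 peaks in each, 52.2% of the weakest bin were M2-only. In the next bins the shares were 34.8%, 24.1%, 15.6%, 9.47%, 4.80% and 1.68%. In the 3 strongest bins they were 0.719%, 0.480% and 0.0%.

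**Figure D1:**
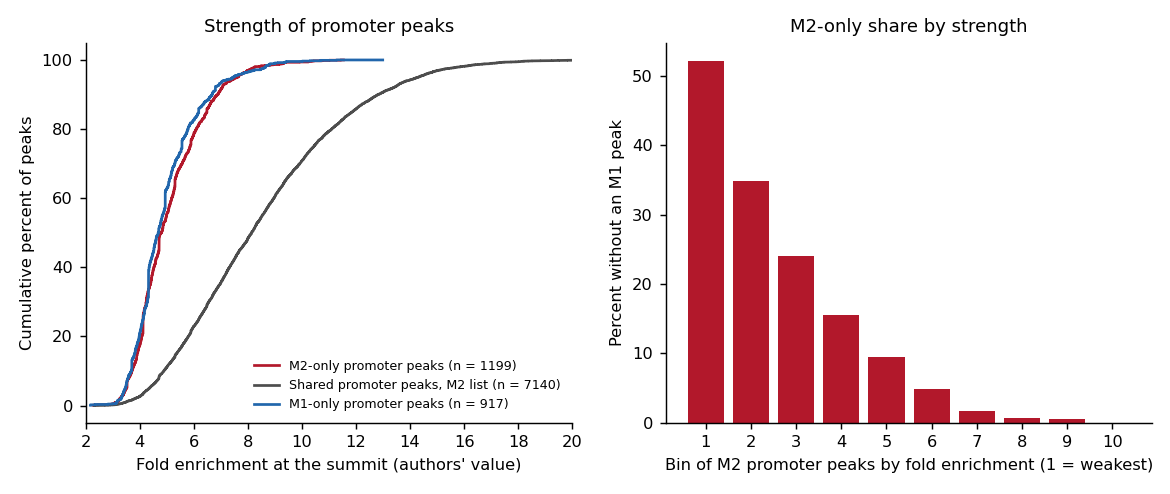
Left, cumulative percent of promoter peaks (y axis) by the authors' fold enrichment at the summit (x axis, drawn from 2 to 20) for 1199 M2-only, 7140 shared and 917 M1-only peaks. Right, percent of M2 promoter peaks without an M1 peak in each of 10 bins of fold enrichment, from 52.2% in the weakest to 0.0% in the strongest. The M2-only and M1-only curves lie together, to the left of the shared curve.

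Several member peaks lay close to an M1 peak without touching it. The median gap to the nearest M1 peak was 12623 bp, but the gap was 500 bp or less for 137 peaks (11.4%) and 1000 bp or less for 210. Just inside the overlap rule stood the peaks at Lonrf3, Map4k3 and Bola3, with gaps of 5, 6 and 9 bp and fold enrichments of 4.80, 4.55 and 4.42. Just outside it stood those at Chst11, 5033421B08Rik and Klc1, which overlapped an M1 peak by 2, 4 and 4 bp and had 5.70, 4.58 and 4.27. At the distance limit, the summits at Gm47794, Vwa5a and Pde12 lay 999, 996 and 995 bp from a start. Those at Foxe1, Prodh and Slc44a4, at 1002, 1005 and 1005 bp, were left out.

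The median distance of member summits from the gene start was 189 bp against 114 bp, and 411 (34.3%) lay within 100 bp against 45.5% of shared ones. Among peaks with a fold enrichment from 4 to 6 only, the medians were 194 bp for 729 member peaks and 134 bp for 1445 shared ones, and M1-only peaks had 180 bp (n = 570). Of the member summits, 516 lay upstream of the start, 681 downstream and 2 on it. Starts on both strands, as at a bidirectional promoter, were found at 133 member peaks (11.1%) and at 21.7% of shared ones. A single start was near 1052 member peaks, 143 had 2 starts and 4 had 3.

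**Figure D2:**
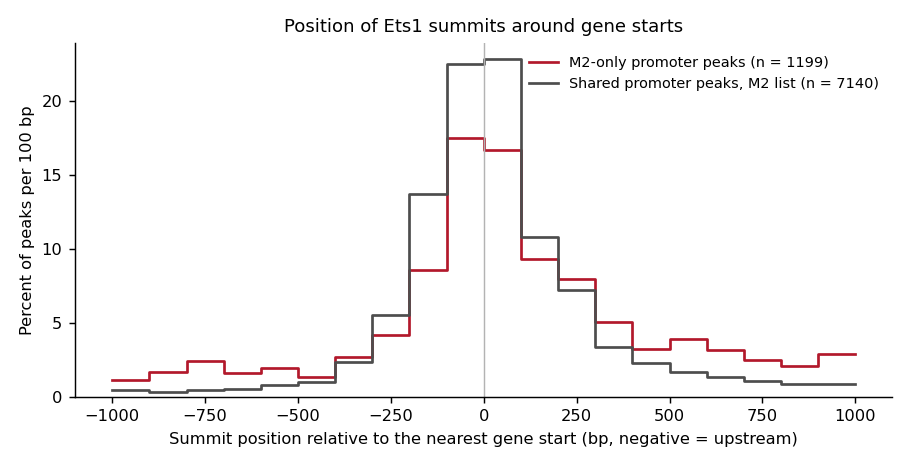
Percent of peaks per 100 bp (y axis) by the position of the summit relative to the nearest gene start (x axis, bp, negative is upstream), for 1199 M2-only and 7140 shared promoter peaks. Both curves peak at the start, and the M2-only curve is lower there and higher beyond 500 bp on either side.

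On the X chromosome, 42 of 187 M2 promoter peaks were M2-only (22.5%). The share on autosomes was 14.2% (1157 of 8150), and ran from 11.1% on chromosome 8 to 17.8% on chromosome 6. In the opposite direction, 22 of 167 M1 promoter peaks on the X (13.2%) and 11.1% of those on autosomes had no M2 partner. Of the 10 strongest member peaks, 4 lay on the X. Median fold enrichment of member peaks was 5.31 on the X and 4.77 on autosomes. Input controls and depth of the ChIP libraries were not used here, and their part in this was not tested.

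A RefSeq window held the summit of 409 of 1199 member peaks, 3620 shared peaks and 253 M1-only peaks, and letters were searched on both strands. The ETS letters CCGGAA were in 29.3% of member windows, 35.1% of shared, 28.5% of M1-only and 14.9% of all 32817 RefSeq promoter windows. The longer CCGGAAGT, which contains CCGGAA, was in 9.05%, 10.8%, 7.51% and 3.89%. Where CCGGAA was present, its nearest copy lay a median of 53 bp from the summit in 120 member windows and 63.5 bp in 1271 shared windows. Each window is 300 bases long, so letters inside it cannot lie far from a summit inside it.

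GAGGAAGT, the letters of the macrophage ETS factor PU.1, stood in 4.40% of member windows, 3.20% of shared and 3.20% of all. The AP-1 letters TGANTCA stood in 5.13%, 4.09% and 7.81%. GC boxes, GGGCGG, were in 61.4% of member windows, 76.6% of shared and 35.6% of all, and CCAAT was in 36.2%, 43.9% and 37.4%. The letters TGACGTCA of CREB-type factors were in 3.42% of member windows, 3.76% of shared and 1.79% of all, and the NRF1 letters CGCATGCG in 3.42%, 5.03% and 1.86%. Median GC content was 60.0% in member windows, 63.7% in shared and 52.7% in all. A ratio of observed to expected CpG of 0.6 or more was found in 70.7%, 87.1% and 35.8%. In the 253 M1-only windows, the shares were 4.35% for GAGGAAGT, 6.72% for TGANTCA, 67.6% for GGGCGG and 31.2% for CCAAT. TGACGTCA stood in 3.16% of them and CGCATGCG in 2.37%. Their median GC content was 62.0%, and 72.7% reached the CpG ratio of 0.6. The differences between these shares were not tested. A match describes these letters in these windows and is not a binding site.

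Genes at member peaks were mostly protein coding, 1100 of 1323, with 61 antisense, 59 lincRNA, 32 processed transcript, 7 snoRNA and 6 miRNA genes. Another Ets1 peak, M1-only or shared, lay within 1000 bp of the start of 205 of these genes. The median control level of the 1266 genes with a mean of at least 1 normalized count in either group was 195 normalized counts, or 52.4 per kb of gene. It was 481 (108 per kb) for genes at shared peaks and 77.8 (27.4 per kb) for all genes tested. The other 57 of the 1323 genes had a mean under 1 in both groups and were not tested.

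Knockouts were compared with controls by limma on log2(value + 1), and a gene was called where its p, adjusted by Benjamini-Hochberg over 20595 genes tested, was under 0.05. A positive log2 fold change is a higher value in knockouts. Of the 1266 genes at member peaks tested, 340 (26.9%) passed, against 20.9% of all genes. Higher in knockouts were 158 (12.5%, against 10.4% of all genes), and lower were 182 (14.4%, against 10.5%). The median log2 fold change was -0.05 at member peaks and -0.04 over all genes. Changes of at least 2-fold among these calls were found for 13 higher (1.03%, against 1.05% of all genes) and 75 lower genes (5.92%, against 5.37%). Without control 2, knockout 1, knockout 2 or knockout 3, the count of 340 was 169, 176, 167 or 204. Scaled to total reads, which moved the median of all genes by -0.13, 93 genes at member peaks were higher and 272 lower. The counts were taken from 1 fit over all genes, and no test set the members against other genes.

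Called genes at shared peaks were more often higher than lower in knockouts. At shared peaks, 2090 of 8466 genes were called (24.7%), 1375 higher and 715 lower. Of these higher calls, 1019 were genes with a mean of 1000 normalized counts or more. Over all genes, 2142 were higher and 2156 lower, and scaling to total reads gave 1186 and 3253. Shared peaks were not recounted after that scaling. At M1-only peaks, 122 were higher and 123 lower of 961. With no promoter peak, 537 were higher and 1163 lower of 10155. Of the member genes without any other Ets1 peak at the start, 120 were higher and 162 lower of 1066. Of those with one, 38 were higher and 20 lower of 200.

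Shares called differed with expression level. Among genes with a mean of 100 to 1000 normalized counts, 23.9% of 485 member genes and 23.9% of all genes were called. From 1000 up, 101 of 268 member genes were higher (37.7%, against 35.9% of all genes) and 33 lower (12.3%, against 8.71%). From 10 to 100, 68 of 279 member genes were lower (24.4%, against 17.5% of all genes and 9.92% of genes at shared peaks) and 13 higher (4.66%, against 3.56% of all genes). Below 10, 9 of 234 were called (3.85%, against 4.96%).

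**Figure D3:**
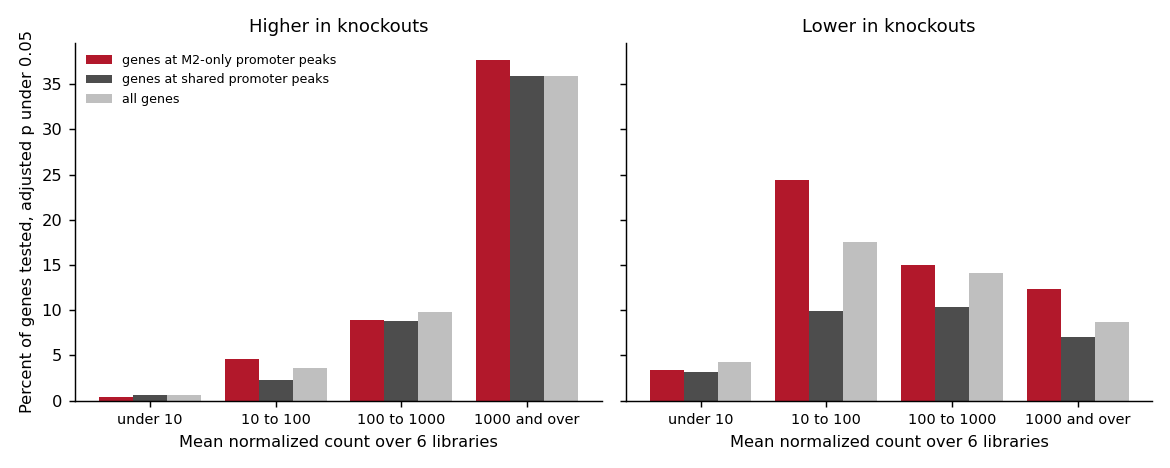
Percent of tested genes with an adjusted p under 0.05 (y axis) that were higher (left) or lower (right) in knockouts, by mean normalized count over the 6 libraries (x axis), for genes at M2-only peaks, genes at shared peaks and all genes. Higher calls gather at 1000 and over in each set, and the largest gap between sets is for lower calls from 10 to 100, 24.4% against 9.92% and 17.5%.

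In 4 bins of peak fold enrichment from weakest to strongest, 27.7%, 28.8%, 26.3% and 24.5% of genes were called. Higher in knockouts were 14.3%, 13.5%, 12.7% and 9.43%, lower were 13.4%, 15.4%, 13.7% and 15.1%, and at least 2-fold lower were 7.96%, 6.90%, 5.08% and 3.77%. Over all genes these shares were 20.9% called, 10.4% higher, 10.5% lower and 5.37% at least 2-fold lower. The trend over bins was not tested. At the 10 strongest peaks lay 11 genes, of which 9 were tested and 0 were called by limma, edgeR or DESeq2. Their adjusted p-values in limma ran from 0.121 to 0.617, and 1, Rps26, had an unadjusted p under 0.05.

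The strongest member peak, with a fold enrichment of 11.5, lay 694 bp downstream of the start of Usp11, a deubiquitinase gene (chrX:20704349-20704703). Usp11 had 73.1, 59.0 and 41.3 in the 3 controls and 34.8, 41.8 and 39.1 in the 3 knockouts, in normalized counts. The groups did not separate from each other clearly, with knockouts from 34.8 to 41.8 and 1 control within that range (log2 fold change -0.54 ± 0.26 SE, adjusted p = 0.173). Rps26 encodes a protein of the small ribosomal subunit and had a peak of 11.4-fold 26 bp upstream of its start. Its values were 4713, 5654 and 6687 in the 3 controls and 4786, 4861 and 4529 in the 3 knockouts. Here 1 control lay among the knockouts, the other two above them (log2 fold change -0.25 ± 0.11 SE, adjusted p = 0.121).

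Ogt, on the X chromosome, encodes the enzyme that attaches O-linked N-acetylglucosamine to proteins, and its peak had a fold enrichment of 9.91. Ogt values were 7179, 7518 and 7418 in the 3 controls and 7076, 6977 and 7061 in the 3 knockouts, with all knockouts just under all controls (log2 fold change -0.07 ± 0.07 SE, adjusted p = 0.53). The remaining peaks of the 10 lay at Whrn (11.01-fold), Wdr45 (10.7), Gm6787 (10.4), Kif2c (10.3), Gm24524 (10.3), Mrpl52 (9.40), and at the paired starts of Cdc25c and 2010110K18Rik (10.2). Whrn encodes a scaffold protein of sensory hair cells, and Wdr45 a protein of autophagosome formation. Kif2c encodes a mitotic kinesin and Cdc25c a phosphatase that drives entry into mitosis. An M1 peak lay 629 bp from the Whrn peak and 83 bp from the Mrpl52 peak, so neither promoter was far from M1 signal. Gm6787 and Gm24524 had 4 and 3 reads over all 6 libraries.

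Macrophage genes at member peaks included receptors and chemokines that fell in the knockouts. Of 29 chemokines and chemokine receptors, 4 had a member peak: Ccr1, Ccl7, Ccl4 and Ccl24. Over the whole list, 0 rose and 16 fell of 28 tested, with a median log2 fold change of -0.80.

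Ccr1 encodes a receptor for inflammatory chemokines, and its peak was among the stronger ones, at 9.33-fold, 45 bp from the start (chr9:123968457-123968776). Ccr1 values were 1203, 1235 and 1370.0 in the 3 controls and 653, 720.0 and 687 in the 3 knockouts. Every knockout lay below every control, near 0.541 of the control mean (log2 fold change -0.88 ± 0.09 SE, adjusted p = 2.48e-05). Ccl7 encodes a chemokine that draws monocytes and had a weak peak of 3.70-fold, 5 bp from its start (chr11:82045698-82045946). Ccl7 had 616, 669 and 618 in the 3 controls and 223, 253 and 232 in the 3 knockouts. The knockouts again lay below all controls (log2 fold change -1.42 ± 0.10 SE, adjusted p = 2.69e-06). Ccl4 did not pass, with 681 ± 208 in controls and 779 ± 30.9 in knockouts (SD, n = 3 libraries each, adjusted p = 0.367), and Ccl24 had 5 and 2 reads in the groups.

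Trem2 encodes a lipid-sensing receptor of macrophages and was the sole gene of 22 macrophage identity genes at a member peak (3.72-fold, chr17:48346339-48346740). Its values were 3097, 3755 and 4388 in the 3 controls and 1749.5, 1894 and 1674 in the 3 knockouts. No knockout reached the lowest control (log2 fold change -1.07 ± 0.11 SE, adjusted p = 4.2e-05). Of that list, 3 genes rose and 7 fell.

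Fcgr2b, C5ar1, Clec4e and Igf1 were picked after their fall was seen and stand for no group. Fcgr2b encodes the inhibitory Fc receptor for IgG, and its peak was weak at 3.68-fold (chr1:170975839-170976191). Fcgr2b values were 8103, 9209 and 10220 in the 3 controls and 2487, 2805 and 2879 in the 3 knockouts. The knockout mean was 0.297 of the control mean, with no overlap (log2 fold change -1.75 ± 0.09 SE, adjusted p = 4.36e-07). C5ar1, the receptor for complement fragment C5a, had 5503, 6144 and 6210.1 in the 3 controls and 2777, 2853 and 2992 in the 3 knockouts. It fell by 1.05 on the log2 scale (± 0.08 SE, adjusted p = 3.09e-06), and an M1 peak lay 706 bp from its member peak. Clec4e, which encodes the glycolipid receptor Mincle, went from 1026 to 606 normalized counts on average (log2 fold change -0.76 ± 0.09 SE, adjusted p = 0.000113). Igf1, a growth factor made by macrophages, went from 9087 to 5755 (log2 fold change -0.66 ± 0.07 SE, adjusted p = 6.9e-05).

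Of 28 classical activation genes, Tlr4, Gpr18, Il18 and Il23a had a member peak (14.3%, against 5.67% of all genes in the table). Tlr4, the receptor for bacterial lipopolysaccharide, had a peak of 6.01-fold and 2058 ± 277 in controls and 2127 ± 16.3 in knockouts (SD, n = 3 libraries each, log2 fold change 0.06 ± 0.09 SE, adjusted p = 0.709). Gpr18 rose (0.44 ± 0.11 SE, adjusted p = 0.0148), a call lost when values were scaled to total reads or knockout 2 was left out. Il18, an interleukin of the IL-1 family, was lower (-0.71 ± 0.23 SE, adjusted p = 0.0486), with 82.8 to 163 in controls and 62.6 to 74.9 in knockouts. That call was lost with a pseudocount of 0.5 or 5 and without each library except control 1. Il23a had 5 and 1 reads in the groups, and an M1 peak lay 89 bp from its member peak. Over the whole list, 5 rose and 7 fell of 28 tested.

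Of 25 alternative activation genes in the table, 3 had a member peak (12.0%): Flt1, Ppargc1b and Ccl24. Over the whole list, 1 rose and 10 fell of 24 tested, with a median log2 fold change of -0.41. Flt1, which encodes a receptor for vascular endothelial growth factor, had 2 member peaks and fell from 50 reads in controls to 3 in knockouts. The ratio of control to knockout was 14.7, with a 95% counting interval from 4.76 to 73.8. Ppargc1b, a coactivator gene of oxidative metabolism, had 77.8 ± 6.64 in controls and 102 ± 12.0 in knockouts (SD, n = 3 libraries each, adjusted p = 0.156), and an M1 peak lay 46 bp from its member peak.

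Interleukin-4 signalling genes at member peaks were Irs1, Rxra and Socs2. Over that whole list, 4 rose and 4 fell of 26 tested. Socs2, a suppressor of cytokine signalling, had 53.7, 30.5 and 46.0 in the 3 controls and 12.0, 12.7 and 17.9 in the 3 knockouts, with no overlap (log2 fold change -1.53 ± 0.34 SE, adjusted p = 0.00696). Irs1, an adaptor of the insulin and interleukin-4 receptors, was lower at -0.90 ± 0.22 SE, adjusted p = 0.0113, a call lost without control 2 or knockout 2. Rxra, a nuclear receptor gene, had 3849.6 ± 501 in controls and 3749 ± 160.2 in knockouts (SD, n = 3 libraries each, adjusted p = 0.844).

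Interferon response genes were Gbp2, Ifi47 and Usp18. Over that whole list, 4 rose and 6 fell of 30 tested. Gbp2, a guanylate-binding protein gene with a peak of 8.22-fold, did not pass (adjusted p = 0.331), nor did Usp18 (adjusted p = 0.178). Ifi47 was lower (-0.50 ± 0.16 SE, adjusted p = 0.0391), a call lost without each library except control 1, and its groups overlapped. Chuk, a kinase of the NF-kB pathway with a peak of 7.82-fold, and Tlr13, a receptor for bacterial RNA, did not pass either, at 0.448 and 0.746. Etv4 was the sole ETS family gene at a member peak of 23 in the table, and it went from 62.8 to 24.3 on average (log2 fold change -1.33 ± 0.26 SE, adjusted p = 0.00342). Over the whole ETS family list, 9 rose and 3 fell of 21 tested. No gene of MHC class II presentation (14 in the table) or of the lysosome (28) had a member peak.

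**Figure D4:**
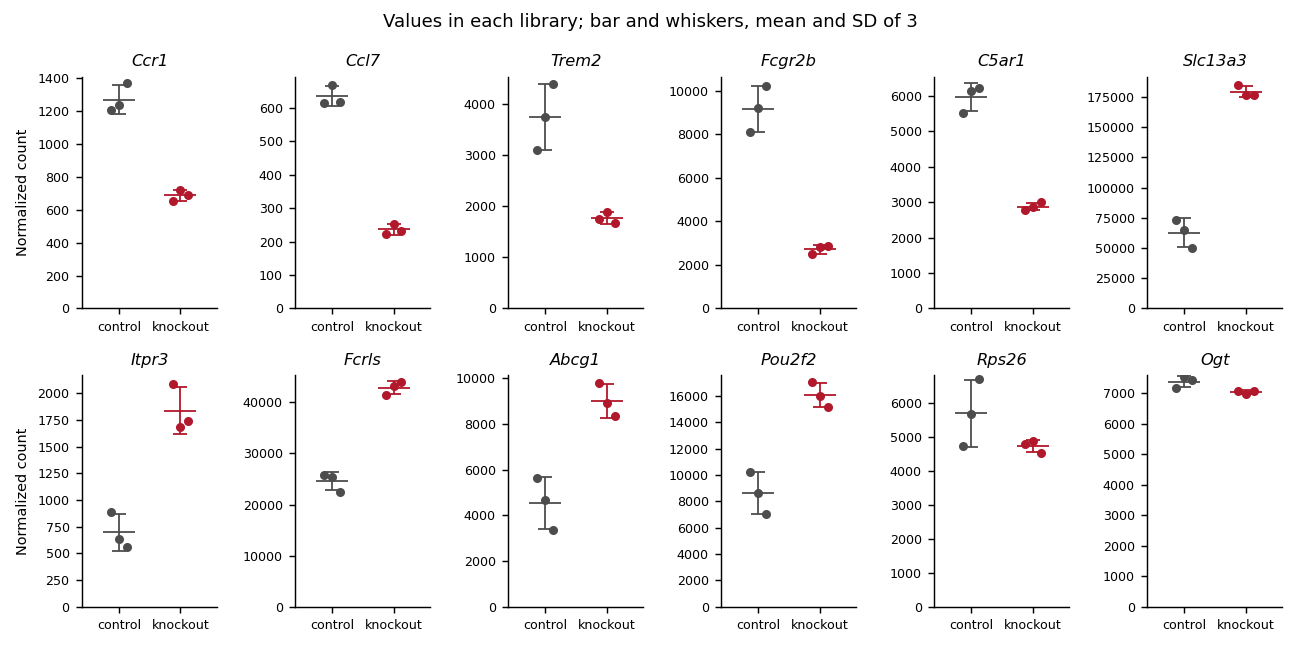
Normalized counts (y axis, from 0) in each control and knockout library for 12 genes at M2-only peaks, with the mean and SD of 3 libraries. The top row holds 5 genes lower in knockouts and Slc13a3, which was higher. The bottom row holds 4 genes higher in knockouts, and Rps26 and Ogt, which lie at strong peaks and did not pass the test.

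Genes of high expression were among the rises. Slc13a3 encodes a sodium-coupled transporter of dicarboxylates such as succinate, and is one of the 5 genes at member peaks with the highest control mean. Its values were 73248, 65042 and 50093 in the 3 controls and 184650, 176485 and 176797 in the 3 knockouts. Every knockout was far above every control (log2 fold change 1.53 ± 0.13 SE, adjusted p = 1.15e-05), at a weak peak of 3.74-fold (chr2:165473578-165473809). Fcrls, an Fc receptor-like gene of macrophages, rose, with 24555 ± 1792 in controls and 42894 ± 1278 in knockouts (SD, n = 3 libraries each, log2 fold change 0.81 ± 0.09 SE, adjusted p = 5.21e-05). The others of these 5, Eef1a1, Gpnmb and Ucp2, did not pass, at 0.407, 0.154 and 0.513.

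Itpr3, which encodes a calcium channel of the endoplasmic reticulum, had 889, 637 and 564 in the 3 controls and 2088, 1681 and 1738 in the 3 knockouts. All knockouts lay above all controls (log2 fold change 1.42 ± 0.14 SE, adjusted p = 3.7e-05). Sez6l2 shared a member peak with Asphd1 and went from 634 to 1705 on average (log2 fold change 1.43 ± 0.09 SE, adjusted p = 1.06e-06). Asphd1 was also higher (1.25 ± 0.31 SE, adjusted p = 0.0138), a call lost without control 2 or knockout 1. The other large rises were from lower levels: Gm21984 (1.55), Hebp2 (1.47), Mettl27 (1.31), Prkaa2 (1.19) and Tubb4a (1.12). Prkaa2 encodes a catalytic subunit of AMP-activated kinase, and Tubb4a a beta tubulin. Hebp2 lost its call without control 2 or any knockout. D830035M03Rik, with the largest fitted rise, had 2 reads in controls and 18 in knockouts, and edgeR and DESeq2 did not call it.

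Single genes at member peaks that were picked after their values were seen stand for no group, and some rose and others fell. Abcg1, which exports cholesterol to lipoproteins, had 5629, 4662 and 3366 in the 3 controls and 9802, 8914 and 8339.5 in the 3 knockouts (log2 fold change 1.01 ± 0.15 SE, adjusted p = 0.000478). All 3 knockouts lay above the highest control. Cyp27a1, a sterol hydroxylase gene, went the other way, from 745 to 385 (log2 fold change -0.93 ± 0.14 SE, adjusted p = 0.000572). Pou2f2, which encodes the transcription factor Oct-2, had 10204, 8667 and 7041 in the 3 controls and 17064, 16014 and 15192 in the 3 knockouts (log2 fold change 0.91 ± 0.12 SE, adjusted p = 0.00019).

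Further genes picked in the same way, for their rise, were signalling genes. Pik3cg, a catalytic subunit of PI3 kinase, rose from 5354 to 8669.7 (log2 fold change 0.71 ± 0.10 SE, adjusted p = 0.000441). The adaptor genes Pik3ap1 and Blnk rose by 0.60 and 0.67 on the log2 scale (adjusted p = 0.00205 and 4.99e-05, limma). Plek, which encodes pleckstrin, rose by 0.79, Sos1, an exchange factor for Ras, by 0.76, and Nras by 0.48 (adjusted p = 3.35e-05, 7.01e-05 and 0.00474). The Nras peak was strong for a member, at 8.11-fold. Eif2ak2, the double-stranded RNA kinase PKR, had a peak of 7.87-fold and rose from 2204 to 2984 (log2 fold change 0.44 ± 0.07 SE, adjusted p = 0.00135). Rragd, a GTPase gene of amino acid sensing, had a peak of 8.00-fold and rose from 142 to 269 (log2 fold change 0.95 ± 0.19 SE, adjusted p = 0.00387).

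**Figure D5:**
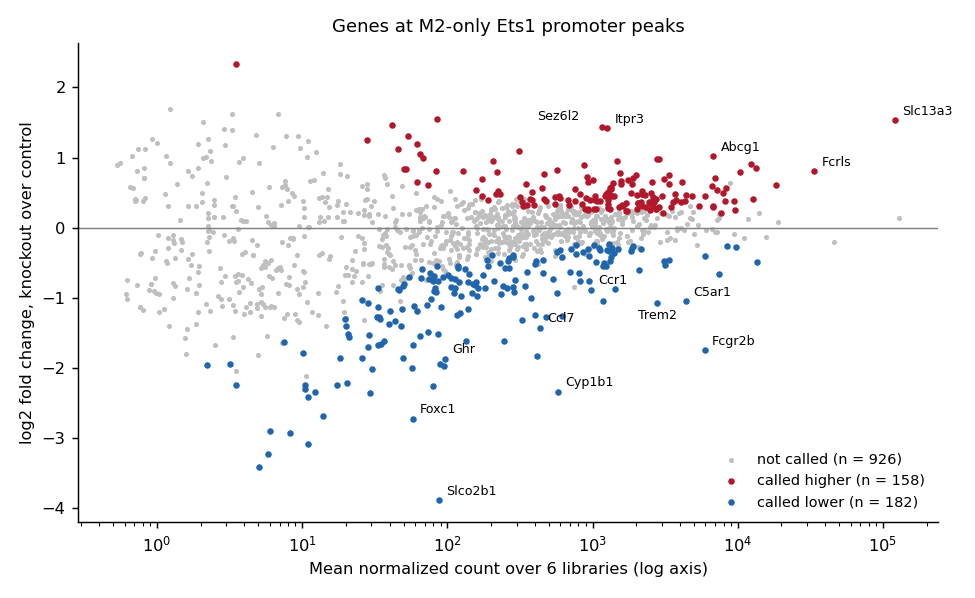
Log2 fold change of knockout over control (y axis) by mean normalized count over the 6 libraries (x axis, log scale) for the 1266 tested genes at M2-only promoter peaks. The 158 higher and 182 lower calls are coloured. The labelled falls of Slco2b1 and Foxc1 lie below 100 normalized counts, and higher calls are densest around 1000 and above.

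The largest fitted falls began with Slco2b1 and included genes with few reads, such as Map2, Avpr1a and Lat. Slco2b1 is an organic anion transporter gene and had 181, 172 and 140.0 in the 3 controls and 13.1, 4.87 and 15.7 in the 3 knockouts. The groups were far apart (log2 fold change -3.88 ± 0.36 SE, adjusted p = 1.83e-05). Map2, a microtubule protein gene of neurons, had 33 reads in controls and 0 in knockouts, so it was at least 9.72-fold lower when the knockout group is set to 3 reads. Avpr1a, a vasopressin receptor gene, had 36 and 1 reads, a ratio of 31.8 with a counting interval from 5.36 to 1291. Lat, an adaptor gene of T cells, had 36 and 2 reads, a ratio of 15.9 with an interval from 4.09 to 136. These bounds and intervals cover counting error only.

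Foxc1, a forkhead transcription factor gene of mesenchyme, had 116, 81.6 and 102 in the 3 controls and 7.62, 15.6 and 23.5 in the 3 knockouts (log2 fold change -2.72 ± 0.36 SE, adjusted p = 0.000251). Dixdc1 and Wnt10b, both of the Wnt pathway, changed by -2.68 and -2.41 on the log2 scale. Gdf11, of the TGF-beta family, changed by -2.36, and the clone-named A530010L16Rik by -3.08. These 4 calls had adjusted p-values from 0.000822 to 0.00801. Growth hormone receptor, Ghr, had one of the stronger member peaks at 9.15-fold and went from 151 to 40.9 on average (log2 fold change -1.87 ± 0.19 SE, adjusted p = 3.89e-05).

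The next 8 genes were picked after their fall was seen and stand for no group. Cyp1b1 went from 967 to 189 (-2.34 on the log2 scale) and Ctgf from 562 to 236 (-1.24). Bmp1, a procollagen protease gene, changed by -1.31, Hmga2 by -1.25, Yap1 by -1.61, Amotl2 by -2.25, Snai1 by -2.02 and Snai2 by -1.62. All 9 stromal markers fell too, with a median log2 fold change of -2.05 and a summed level of 10750 to 15944 normalized counts in controls and 3465 to 4204 in knockouts. None of those 9 was at 0 in either group, and none had a start at a member peak. The part of stromal RNA in these falls was not tested.

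Among markers of other cell types, some were lower in knockouts and others did not pass. Endothelial markers at member peaks were Cdh5, lower at -1.51 ± 0.45 SE, adjusted p = 0.0333, a call lost without 5 of the 6 libraries, and Pecam1, at -0.31 ± 0.11 SE, adjusted p = 0.0559. The 7 endothelial markers summed to 1019.5 to 1266 in controls and 806 to 982 in knockouts, and 3 of 7 fell. Of the T and NK markers, 3 of 8 tested fell, from a sum of 376 to 440 down to 63.7 to 67.5. Neutrophil markers fell in 8 of 14 (sums of 27447 to 31911 in controls against 17859 to 19336 in knockouts) and megakaryocyte markers in 4 of 6 (3067 to 4917 against 1232 to 1393). B cell markers fell in 7 of 10 (sums of 1259.6 to 1429 against 1000.2 to 1024), mast cell and basophil markers in 4 of 8 (237 to 311 against 80.5 to 95.7) and dendritic cell markers in 1 of 8 (371 to 541 against 332 to 359). Median log2 fold changes were -3.57 for B cell, -1.88 for megakaryocyte, -1.51 for mast cell and basophil, and -1.31 for endothelial markers. They were -0.99 for T and NK, -0.78 for neutrophil and -0.48 for dendritic cell markers. Sums follow the most abundant markers: Pecam1 alone had 1033 in controls and 832 in knockouts on average. At 0 reads in knockouts were Fcer2a, Cd2, Ncr1, Cpa3 and Fcer1a. The part of these cells in the falls of genes at member peaks was not tested. Csf3r and Klrb1c, the neutrophil and NK markers at member peaks, did not pass (adjusted p = 0.81 and 0.694).

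Over the whole table, 5.67% of genes had a member peak, and gene families lay on both sides of this share. Under it were splicing proteins (1 of 66, 1.5%), proteasome subunits (1 of 50, 2.0%) and genes named as cytosolic ribosomal proteins (8 of 237, 3.38%). Zinc finger genes named Zfp had 31 of 374, of which 1 rose and 2 fell, and over the whole family 26 rose and 18 fell of 365 tested. Solute carriers had 25 of 294, with 5 higher and 3 lower of 22 tested, and over the whole family 53 and 25 of 271. Among all genes, 10.4% were higher and 10.5% lower. Mitochondrial ribosomal protein genes had 9 of 81, of which Mrpl3 rose (log2 fold change 0.27, adjusted p = 0.0492) and Mrps21 and Mrpl36 fell, at -0.94 and -0.57 on the log2 scale. The Mrps21 call was lost without control 2, that of Mrpl36 without each library except control 1. Over that whole family, 2 rose and 12 fell of 81 tested. Subunits of respiratory complex I had 6 of 51, with Ndufa3 lower at -0.83 ± 0.16 SE, adjusted p = 0.00387 and Ndufs6 at -0.77 ± 0.18 SE, adjusted p = 0.0116. The Ndufs6 call was lost without control 2, knockout 1 or knockout 3, and its reads may be shared with the copy Ndufs6b. The Ndufs6 peak also serves the start of Mrpl36. An M1 peak lay 571 bp from it, and both starts had another Ets1 peak within 1000 bp. Over all complex I subunits, 0 rose and 10 fell of 51 tested.

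Proteins of the cytosolic ribosome at member peaks included those encoded by Rps26, Rps28, Rps27, Rpl23a and Rpl37a. Rpl37a had 3016, 3942 and 4829.7 in the 3 controls and 2816, 2993 and 2632 in the 3 knockouts, with control 1 nearest to the knockouts (log2 fold change -0.46 ± 0.13 SE, adjusted p = 0.0295). Rpl23a went from 2385 to 1941 (-0.30 ± 0.09 SE, adjusted p = 0.036). Both calls were lost without any library other than control 1. Rps28 and Rps27 did not pass (adjusted p = 0.239 and 0.103), and Rps27 ranged from 422 to 1662 among the controls. Over all genes with names of this family, 4 rose and 40 fell of 219 tested. Processed copies of ribosomal protein genes are many, so these counts are uncertain.

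Chromatin modifiers at member peaks were Chd7, Ezh1 and Kdm1a, of 58, and 1 was called, Ezh1, at 0.32 ± 0.10 SE, adjusted p = 0.0445. It was lost in edgeR, after scaling to total reads and without each library except control 1. Over that whole list, 20 rose and 4 fell of 58 tested. An M1 peak lay 236 bp from the Chd7 peak. Cell cycle genes were Plk1, Bub1 and Ccnb2, of 31, a list in which 1 rose and 5 fell. Plk1 was lower at -0.51 ± 0.13 SE, adjusted p = 0.0134, a call lost without control 2 or knockout 2. Autophagy genes were Atg7 and Gabarapl1, of 26, a list in which 1 rose and 2 fell. Gabarapl1 was lower at -0.30 ± 0.08 SE, adjusted p = 0.0209, a call lost without control 2, knockout 1 or knockout 2.

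Few genes nearest to peaks with the full ETS letters were called. Of 37 genes nearest to peaks whose window held CCGGAAGT, 4 were called (10.8%), 1 higher and 3 lower. Where the window lacked it, 107 of 366 were called (29.2%), against 20.9% of all genes. For each peak the window with the start nearest the summit was used, and its symbol was not matched to the gene. With the shorter CCGGAA, 24 of 120 were called, and without it 87 of 283. The median control level was 332 normalized counts with CCGGAAGT and 261 without, and the median fold enrichment of the peaks was 5.53 and 5.22. The difference between these shares was not tested.

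The 4 called genes were Arhgap1, Arpc3, Fam32a and Rab24. Arhgap1, which encodes a GTPase-activating protein and holds 2 copies of CCGGAAGT, had 2118, 2234 and 2104 in the 3 controls and 2629.7, 2849.8 and 2865 in the 3 knockouts. All knockouts were above all controls (log2 fold change 0.37 ± 0.07 SE, adjusted p = 0.00387). Arpc3 encodes a subunit of the actin-nucleating Arp2/3 complex and went from 3628 to 2579 (log2 fold change -0.47 ± 0.11 SE, adjusted p = 0.0115), a call lost without control 2 or any knockout. Fam32a went from 1405 to 1126 (log2 fold change -0.31 ± 0.09 SE, adjusted p = 0.0251), a call lost without any library other than control 1. Actr6, an actin-related gene of nuclear chromatin remodelling with the strongest peak among these windows (7.96-fold), had 132 ± 20.9 in controls and 112 ± 6.36 in knockouts (SD, n = 3 libraries each, log2 fold change -0.23 ± 0.17 SE, adjusted p = 0.36).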

How the data were processed

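The deposited expression table held a signal for each gene in each library. The values deposited by the authors are whole multiples of 1 step per library, as read counts divided by a size factor would be. Whole reads were recovered for 100.0% of values (tolerance 0.001), and edgeR and DESeq2 ran on them as alternatives. The plan had allowed for raw counts or normalized values, and the test for the latter was used. The deposited log2 fold change, p-value and adjusted p-value columns of the authors were not used. The deposited peak lists gave, for each peak, a score, a fold enrichment ratio at the summit, a −log10 p and a −log10 q. Per the labels, peaks lie on mouse build mm10, and gene starts came from the expression table. Per the submitters' processing notes, HTSeq 0.6.0, HISAT2 2.1.0 and Bowtie2 2.2.3 were used for RNA, and BWA, SAMtools, MACS2, deepTools and DESeq2 for ChIP. The ChIP input, the threshold for peaks and the use of strand in counting are not given in those notes or the labels. Antisense and overlapping genes are therefore uncertain.

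Overlaps needed 1 bp. Genes whose mean reached 1 in controls or knockouts were fitted with limma 3.58.1 (trend, log2 of value plus a pseudocount of 1) in R 4.3.3, and p-values were adjusted by Benjamini-Hochberg over all genes tested. Each ± beside a mean is an SD over 3 libraries, and SE belongs to a log2 fold change. The pipeline was tested on simulated data. Alternatives were edgeR 4.0.16, DESeq2 1.42.0, pseudocounts of 0.5 and 5, no filter, a minimum mean of 10, scaling to total reads, a replicate block, each library left out, and other peak rules. Named were genes at the 10 strongest peaks, the 10 largest rises and falls among called genes with no overlap of groups, the 5 with the highest control mean, and members of macrophage lists. Other named genes were chosen after their values were seen. The members and lists were chosen with earlier results of these data known. The labels do not say whether libraries came from separate animals, so the spread behind the p-values is between libraries and may be technical.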

Additional observations from a re-analysis of the deposited data

How the results depend on the processing

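The count of M2-only promoter peaks was 1199. It was 2246 when an M1 peak had to cover 50% of a peak to remove it, and 491 with a −log10 q of at least 5. At those stronger peaks, 136 of 537 genes tested were called, 59 higher and 77 lower. Scaled to total reads, 1186 of all genes were called higher and 3253 lower, and 93 genes at member peaks were higher. With 1 library left out in turn, calls at member peaks ran from 167 to 436 (higher 74 to 214, lower 87 to 222), and over all genes from 2029 to 5716 (higher 873 to 2976, lower 1070 to 2740). Of the 340 genes called at member peaks, 142 were called under all 14 alternatives of the fit, and 198 lost the call without at least 1 library. DESeq2 called 328 and edgeR 346 at member peaks. No call of a named gene turned to the opposite direction: of 1587 values under alternatives, 83 lost and 23 gained a call. This does not cover the sign of genes that were not called. Some of these, such as Tlr4 at 0.06, had log2 fold changes smaller in size than the median shift of -0.13 on scaling to total reads. The causes of these moves were not tested.

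The libraries share replicate numbers 1 to 3. Each library's deviations from its group mean, on the log2 scale over genes, were correlated between controls and knockouts. These deviations correlated at 0.0224, 0.0230 and 0.0308 for same-numbered libraries, under 0.1, so the numbers were not read as pairs. The deviations of every library correlated best with those of its own number, which is a hint from the data, not the design. With the replicate block, 428 genes at member peaks were called (200 higher, 228 lower) and 5374 over all genes (2652 higher, 2722 lower).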
